A study of Mus musculus with 2 samples.

Results

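The cell-cycle genes described here were a list of 41 mouse genes, chosen by symbol from the 32285 genes in the count tables. The list held 15 genes of DNA replication (S phase), 24 genes of mitosis and 2 genes, Stmn1 and Hmgb2. These 2 were set apart beforehand as broad, since cells that do not divide can hold them too. All 41 symbols were found in the tables. The data are 2 droplet-based single-cell RNA libraries, 1 per treatment, each a pool of immune cells from the pancreatic tumors of 3 mice taken 48 h after treatment. In both groups, male C57BL/6J mice, 5 to 6 weeks old when obtained, carried K210 tumor cells, a mouse pancreatic cancer line, in the pancreas. The mice received PBS or cmExoaCD11b through the peritoneum. cmExoaCD11b are exosomes, small vesicles shed by cells, that hold cGAMP, an activator of the STING sensor, and the mRNA of the cytokine IL-12, and that carry an antibody to CD11b, a surface protein of myeloid cells. As there was 1 library per treatment and the mice were pooled, no difference between the treatments could be tested, and treatment cannot be told apart from library or mouse. The libraries answer which classes of cells divide, which genes of the cycle they hold, and how far the values of the 2 pools lie apart.

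A cell that divides first copies its DNA. Licensing factors load the MCM helicase on the DNA, the helicase opens it, and the sliding clamp and the enzymes of nucleotide synthesis allow the copy to be made. In mitosis, cyclins and their kinases condense the chromosomes, motors and crosslinkers build the spindle, a checkpoint holds the cell until each chromosome is attached, and a ubiquitin ligase, the anaphase-promoting complex, then destroys the cyclins. Neutrophils are a textbook case of an ordered exit from the cycle: granule-forming precursors divide, and the mature cells no longer do. T cells, B cells turning into plasma cells and some tissue macrophages divide after they are stimulated.

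The S and mitosis genes differ in the DNA words around their start sites. The promoters of 6 members that hold such words before the start site are shown as examples, 3 from each set. Promoters of mitosis genes are known for the word TTTGAA (the cell cycle homology region) near CCAAT boxes, and those of S-phase genes for the E2F words TTCCCGC or TTGGCGC. The sequences are the 150 bases before the start site, from RefSeq on build GRCm38.p6, written 5′ to 3′ on the strand of the gene. Capitals mark these words on either strand. A CCAAT box read on the other strand appears as ATTGG, and the other words appear likewise as their reverse complements. Cdc20, the activator of the anaphase-promoting complex, is at chr4:118437344-118437493 (minus strand), Ube2c, the complex's ubiquitin-conjugating enzyme, at chr2:164769779-164769928 (plus strand), and Cdk1, the kinase that drives mitosis, at chr10:69352913-69353062 (minus strand). Rrm1, the large subunit of ribonucleotide reductase, is at chr7:102441545-102441694 (plus strand), Mcm6, a helicase subunit, at chr1:128359706-128359855 (minus strand), and Cdc6, a licensing factor, at chr11:98908001-98908150 (plus strand).
Cdc20: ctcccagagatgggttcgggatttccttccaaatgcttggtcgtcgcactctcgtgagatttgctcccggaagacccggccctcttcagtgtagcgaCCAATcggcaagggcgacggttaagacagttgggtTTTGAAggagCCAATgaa
Ube2c: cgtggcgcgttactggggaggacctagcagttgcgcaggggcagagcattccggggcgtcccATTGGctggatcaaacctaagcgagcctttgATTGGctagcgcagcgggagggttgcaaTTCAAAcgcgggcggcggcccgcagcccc
Cdk1: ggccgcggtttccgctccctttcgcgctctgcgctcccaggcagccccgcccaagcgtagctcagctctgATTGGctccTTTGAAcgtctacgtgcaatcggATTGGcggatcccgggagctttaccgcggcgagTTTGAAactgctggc
Rrm1: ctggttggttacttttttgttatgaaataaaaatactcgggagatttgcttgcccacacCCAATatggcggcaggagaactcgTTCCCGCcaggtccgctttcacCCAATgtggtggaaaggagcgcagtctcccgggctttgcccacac
Mcm6: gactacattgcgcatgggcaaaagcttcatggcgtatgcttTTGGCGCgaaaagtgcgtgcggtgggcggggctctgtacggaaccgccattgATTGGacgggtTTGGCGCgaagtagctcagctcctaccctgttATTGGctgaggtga
Cdc6: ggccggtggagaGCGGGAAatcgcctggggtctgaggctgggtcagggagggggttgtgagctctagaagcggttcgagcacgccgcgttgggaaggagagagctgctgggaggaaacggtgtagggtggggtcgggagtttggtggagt

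RefSeq promoter windows of 300 bases, from 250 before to 50 after the start site, were at hand for 34 of the 41 members, and Ccna2, Aurkb, Tpx2, Kif20a, Mcm4, Gins2 and Stmn1 had no entry. A member was counted when any of its windows held a word, whereas the share of all windows counts each window by itself. TTTGAA was found in 15 of the 20 mitosis members (75%) and in 2 of the 13 S members (15.4%), beside 17.9% of all 32851 windows. CCAAT was found in 18 of 20 mitosis members and 9 of 13 S members, beside 37.4% of all windows. An E2F word was found in 3 of 20 mitosis members and 6 of 13 S members, beside 6.81% of all windows. All 15 mitosis members with TTTGAA also held a CCAAT, as did both such S members, whereas 6.95% of all windows held both words. An E2F word can overlap a CCAAT read on the other strand, as in Ccnb1. The S and mitosis genes, told apart here by their role, therefore also differed in the words of their promoters. A match is a description of these letters and not a mapped binding site.

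Cells were called among 644248 barcodes in PBS and 723594 in cmExoaCD11b. After the removal of cells with few genes or a high mitochondrial share and of the cells with the highest doublet scores, 6835 and 7073 cells were kept, with a median of 3471 and 4098 UMIs (unique molecule tags). The libraries shared 16 barcodes among kept cells. Each cell was put in a class by UMIs of fixed marker genes above the level that RNA from the surrounding fluid would give. None of the 41 members was among these markers. Neutrophil precursors (310 and 434 cells) were gated on granule genes such as Mpo and Elane, immature neutrophils (882 and 1424) on Ltf, Camp and Ngp, and mature neutrophils (2863 and 2116) on genes such as Cxcr2 and Retnlg. The other classes held 376 and 863 T cells, 54 and 129 plasma cells, 221 and 91 macrophages, and 41 and 30 epithelial cells, gated on keratins and Epcam. Cells that passed the gates of 2 lineages (320 and 390) or of none (1373 and 1086) were put in no class. Levels are given as CPM (a gene's share of the UMIs, scaled to 1000000) summed over the cells of a class. UMIs count molecules and not lengths, so levels of different members are not scaled by length. Intervals are 95% intervals and cover counting error only, not differences between mice. Those of CPM and of CPM ratios treat UMIs as independent, so they also leave out the spread between cells.

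Of the 11 classes plotted, neutrophil precursors held the largest dividing share in both libraries. Mature neutrophils, which are past their last division, held the smallest in PBS and the smallest but for NK cells in cmExoaCD11b. A cell was called dividing when it held UMIs of at least 3 of the 39 S and mitosis members after each cell was thinned to 1000 UMIs, with shallower cells left out. By this rule 63.6% of 305 precursors in PBS (57.9 to 69.0) and 73.0% of 433 in cmExoaCD11b (68.5 to 77.1) were dividing. The share was 13.9% of 854 immature neutrophils in PBS (11.7 to 16.4) and 16.0% of 1391 in cmExoaCD11b (14.1 to 18.1). In mature neutrophils it was 0.290% of 2763 (0.13 to 0.57) and 0.643% of 2023 (0.34 to 1.10), which served as the background of the call. These 3 steps of one lineage thus fell into separate ranges in each library, with no overlap between their intervals.

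Plasma cells came next after the precursors, at 27.8% of 54 cells in PBS (16.5 to 41.6) and 33.1% of 127 in cmExoaCD11b (25 to 42.0). Their gate (Jchain, Mzb1, Sdc1, Tnfrsf17 and Derl3) took precedence over that of B cells, so the class can also hold B cells turning into plasma cells. Dendritic cells held 13.8% of 29 and 8.97% of 78, epithelial cells 7.89% of 38 and 13.3% of 30, and monocytes 5.19% and 6.98%. T cells held 5.63% of 373 (3.52 to 8.48) and 6.56% of 854 (4.99 to 8.43), and macrophages 2.75% of 218 (1.02 to 5.89) and 6.82% of 88 (2.54 to 14.3). B cells held 2.08% and 2.34%, and NK cells 1 of 23 cells and 0 of 78, which allows a share of up to 3.85% by a limit of 3 counts and 4.62% by the exact interval. From dendritic cells to B cells the intervals of neighbors in this order overlapped, so their order is not resolved at this number of cells. The interval of dendritic cells, 3.89 to 31.7 in PBS and 3.68 to 17.6 in cmExoaCD11b, also overlapped that of immature neutrophils, and in PBS that of plasma cells. In each library the shares of T and plasma cells lay above the interval of the mature neutrophils, and so did that of the macrophages.

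**Figure D1:**
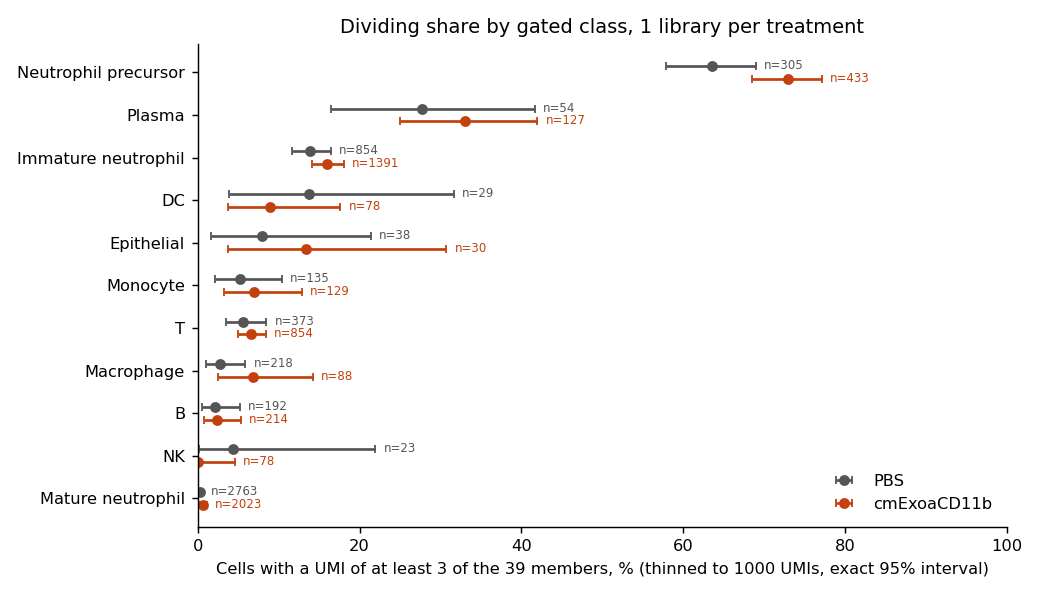
Share of cells called dividing (x axis, percent of cells thinned to 1000 UMIs) in each gated class (y axis), for the PBS library (gray) and the cmExoaCD11b library (orange), with exact 95% intervals and the number of cells. Precursors stand at 63.6% and 73.0%, plasma cells at 27.8% and 33.1%, immature neutrophils at 13.9% and 16.0%, and mature neutrophils at 0.290% and 0.643%.

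The classes differ in depth, which sets the share without thinning. The median UMIs of a cell were 26353 and 27549 in precursors, 12787 and 11392 in immature neutrophils, 3050 and 2802 in mature neutrophils and 4732 and 3913 in T cells. Without thinning, the dividing share was 93.2% and 98.4% in precursors, 31.2% and 41.6% in immature neutrophils, 3.77% and 5.81% in mature neutrophils and 35.6% and 35.1% in T cells. It was 64.8% and 75.2% in plasma cells, 40.7% and 39.6% in macrophages and 61.0% and 70.0% in epithelial cells. The thinned shares are therefore used for all comparisons of classes. Of all dividing cells, precursors made up 43.5% and 39.2%, immature neutrophils 26.7% and 27.6%, plasma cells 3.36% and 5.20%, and T cells 4.71% and 6.94%. Cells with markers of 2 lineages, most often of monocytes and neutrophils, made up a further 10.8% and 10.5%.

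Across all kept cells the dividing share was 6.90% in PBS and 12.2% in cmExoaCD11b. The summed level of the 39 members, 1631 and 2341 CPM over all kept cells, ran the same way. The pools differed in class make-up, so neither value compares cells of the same class. Precursors made up 4.54% and 6.14% of kept cells, immature neutrophils 12.9% and 20.1%, and mature neutrophils 41.9% and 29.9%. By class, the summed level was 4410 and 5090 CPM in precursors and 1410 and 1566 in immature neutrophils. T cells held 1460 and 1239 CPM, plasma cells 2223 and 2762, and macrophages 659 and 987. Mature neutrophils held 288 and 337 CPM. Empty droplets, which hold only free RNA, stood at 1695 and 2743 CPM, so 7% of free RNA in a cell would add 119 and 192 CPM. The level of the mature neutrophils was thus within 3-fold of what such a share of free RNA would give, whereas that of the precursors was far above it.

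**Figure D2:**
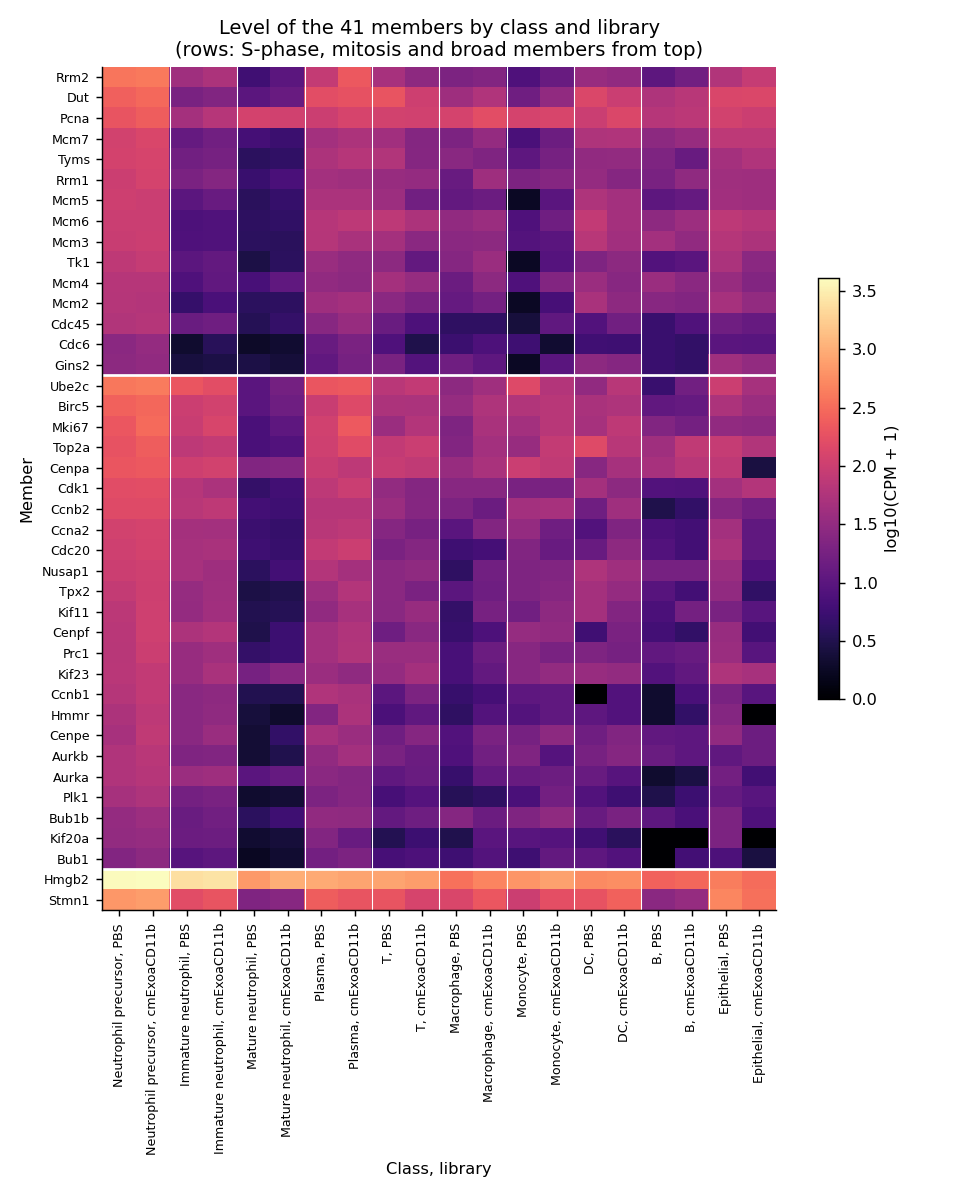
Level of each member (rows, with the 15 S-phase members on top, the 24 mitosis members below them and Hmgb2 and Stmn1 at the bottom) in each class and library (columns), as log10(CPM + 1) in color. The brightest columns are the neutrophil precursors, at 4410 and 5090 CPM summed over 39 members, and the S rows darken from precursors to immature neutrophils while the mitosis rows stay visible.

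Immature neutrophils held the mitosis genes at a higher share of the precursor level than the S-phase genes. For each member the CPM in precursors was divided by that in immature neutrophils of the same library. All 15 S members stood at least 4-fold higher in precursors in PBS (4.39 to 24, median 9.92), and 14 of 15 did in cmExoaCD11b (3.67 to 16.0, median 7.75). None of the 24 mitosis members reached 4-fold in either library, with ratios of 1.29 to 2.82 (median 2.30) in PBS and 1.62 to 3.35 (median 2.52) in cmExoaCD11b. Of all genes with enough UMIs, 9.79% of 9238 were at least 4-fold higher in PBS and 12% of 10187 in cmExoaCD11b, and the median of all genes was 1.39 and 1.40. The ranges of the S and the mitosis members did not overlap in either library, but did once cells were thinned, as given below.

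Cdc6 in PBS and Gins2 in cmExoaCD11b had the largest ratios of the S members. Cdc6, which loads the helicase, was 25.8 CPM in precursors and 1.1 in immature neutrophils in PBS, a ratio of 24 (13.7 to 45.8) that rests on 13 UMIs in the latter. In cmExoaCD11b its ratio was 11.6 (8.69 to 15.8). Gins2, a part of the active helicase, stood at 17.5 and 16.0, and the helicase subunits Mcm2 to Mcm7 at 9.50 to 16.3 in PBS and 6.05 to 13.6 in cmExoaCD11b. Cdc45, which joins the helicase when it starts, had the lowest ratio of this group, 4.45 and 4.34.

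Among the genes of nucleotide supply, Rrm2, the regulated subunit of ribonucleotide reductase, was 371 and 403 CPM in precursors and 40.7 and 52.3 in immature neutrophils. Dut, which clears dUTP, was 256 and 304 CPM in precursors and 17.7 and 21.6 in immature neutrophils, ratios of 14.4 and 14.1. Tyms, which makes thymidylate, had ratios of 7.80 and 7.55, and Tk1, which salvages thymidine, 8.32 and 7.66. Rrm1, whose promoter is shown above, had 5.42 and 5.22. Pcna, the sliding clamp, was the S member with the smallest ratio, 4.39 and 3.67.

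Pcna was also the S member that mature neutrophils held most. Its level there was 116 and 108 CPM, above the 44.9 and 65.1 CPM of immature neutrophils, and 10.6% and 11.2% of thinned mature neutrophils had a Pcna UMI. In mature neutrophils the helicase genes Mcm2 to Mcm7 were at 2.8 to 10.4 CPM. Pcna was 95.6 to 169 CPM in T cells, plasma cells, macrophages, monocytes, dendritic cells and epithelial cells, and 150 and 193 CPM in empty droplets. In mature neutrophils the protein of Pcna is known to lie in the cytosol, apart from DNA replication. The level of Pcna was thus alike in mature neutrophils, where few cells were called dividing, and in plasma cells (97.3 and 123 CPM).

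From all UMIs, the mitosis genes of every role stayed below 4-fold in both libraries. Mki67, the antigen of dividing nuclei, was 213 and 310 CPM in precursors and 92.7 and 129 in immature neutrophils. Top2a, which untangles the copied DNA, was 192 and 241 against 72.7 and 83.5 CPM. Ube2c was 384 and 416 in precursors against 200.5 and 164 CPM, and Cdc20 105 and 116 against 46.0 and 48.8 CPM. Both genes of the anaphase-promoting complex thus stayed within 3-fold of the precursor level.

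Of the mitotic kinases and cyclins, Cdk1 had ratios of 2.55 and 3.35, Ccnb1, its cyclin B partner, 2.47 and 2.93, and Plk1, which matures the spindle poles, 2.82 and 3.05. Aurka, the kinase of the spindle poles, had 1.58 and 1.66, and Aurkb, the kinase of the centromeres, 2.77 and 3.16. Ccnb2, the other cyclin B, had 2.31 and 1.98, and Ccna2, cyclin A, 2.51 and 2.74. The checkpoint genes Bub1 and Bub1b had 2.63 and 2.85, and 2.50 and 2.47. Cenpf, a protein of the outer kinetochore, had 1.29 (1.15 to 1.45) and 1.74 (1.61 to 1.88), the ratio nearest to even in PBS, while Kif23 at 1.62 was nearest in cmExoaCD11b. The other centromere genes, Cenpa, Cenpe and Birc5, the chromosomal passenger survivin, ranged from 1.84 to 2.64. The spindle and midbody genes Tpx2, Kif11, Kif20a, Kif23, Hmmr, Nusap1 and Prc1 ranged from 1.62 to 2.64 over both libraries. Of the broad genes, Stmn1, which destabilizes microtubules, had ratios of 4.21 and 3.77, like the lowest S members, and Hmgb2, a chromatin protein, had 1.65 and 1.60.

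**Figure D3:**
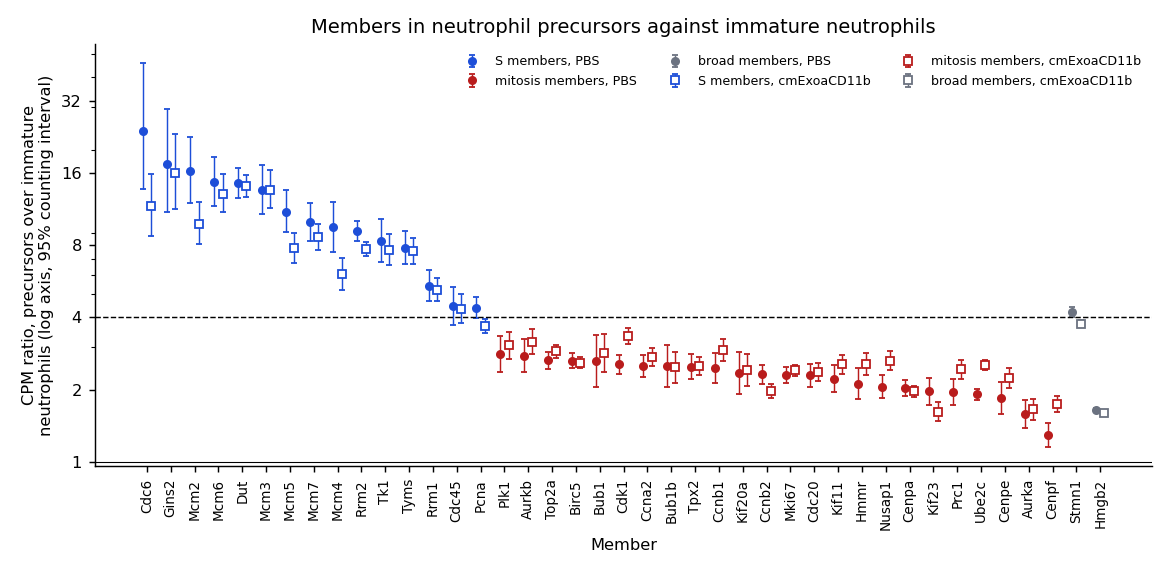
CPM of each member in neutrophil precursors divided by that in immature neutrophils (y axis, log scale, with 95% counting intervals), for S members (blue), mitosis members (red) and broad members (gray), filled for PBS and open for cmExoaCD11b, with a dashed line at 4. All 15 S members in PBS and 14 in cmExoaCD11b lie above 4, and 0 of the 24 mitosis members do in either library.

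The same pattern was seen cell by cell. Of the dividing immature neutrophils, 99 held the mitosis call alone in PBS (UMIs of at least 2 of the 24 mitosis members, without 2 of the 15 S members), 7 the S call alone and 13 both. In cmExoaCD11b these counts were 175, 6 and 42. Of the dividing precursors, 72 held the mitosis call alone, 51 the S call alone and 71 both in PBS, and 128, 59 and 129 in cmExoaCD11b. Mitosis UMIs outnumbered S UMIs by 5.84 and 4.85 times in immature neutrophils and by 1.51 and 1.61 times in precursors. In T cells this ratio was 0.88 and 1.54, in plasma cells 1.72 and 1.69, in macrophages 0.76 and 0.91 and in mature neutrophils 0.72 and 0.91. In mature neutrophils Pcna alone gave 1186 of the 1713 S UMIs in PBS and 750 of 1225 in cmExoaCD11b, so the ratio there mostly reflects that gene. Of the 8 classes with at least 50 cells in each library, immature neutrophils had the highest ratio of mitosis to S UMIs in both.

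Markers of the neighboring steps were measured in the dividing immature neutrophils. Precursor markers were at 316 and 417 CPM in dividing immature neutrophils against 165 and 206 CPM in the others, and markers of mature neutrophils at 4675 and 5953 against 19093 and 21914 CPM. Empty droplets held 2483 and 3937 CPM of precursor markers. Cells that passed the precursor gate were classed as precursors, so the gate bounds the precursor markers of all immature neutrophils. The share of precursors in these values was not tested. Without the 50 most abundant genes and the mitochondrial genes in the total, 13 S members stood at least 4-fold higher in precursors in each library and 0 mitosis members did. With every cell thinned to 1000 UMIs, 13 and 14 S members and 3 and 5 mitosis members did, and the ranges overlapped, with S members at 2.61 to 36.4 and 3.77 to 15.1 and mitosis members at 1.58 to 4.20 and 1.34 to 5.83. Both of these settings were added once results were known.

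Within the precursors, cells that passed the immature gate as well were distinguished from those that did not. Of the former, 65.5% of 261 thinned cells in PBS and 72.1% of 377 in cmExoaCD11b were dividing. Of the latter, 52.3% of 44 (36.7 to 67.5) and 78.6% of 56 (65.6 to 88.4) were, so these shares rest on few cells. The summed S level was 1703 and 1778 CPM in precursors that also passed the immature gate and 2054 and 2866 CPM in the others. For the mitosis members it was 2808 and 3279 CPM against 1819 and 2402 CPM. The mitosis over S ratio was higher at each of the 3 steps in each library, from 0.89 and 0.84 in precursors that did not pass the immature gate, to 1.65 and 1.84 in those that did and 5.84 and 4.85 in immature neutrophils.

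Precursors held 45.4% and 47.2% of all UMIs of the 39 members. In PBS, Rrm2 (68.3%), Cdc6 (58.7%) and Mcm5 (56.7%) had the largest share of their UMIs in precursors, and Pcna (28.7%), Bub1b (34.4%) and Kif23 (34.8%), a motor of the midbody, had the smallest. In cmExoaCD11b the largest were Rrm2 (60.8%), Tk1 (60.4%) and Cdc6 (58.6%), and the smallest Kif23 (34.8%), Bub1b (37.6%) and Pcna (38.6%). The members with the highest levels in precursors were Hmgb2 (3919 and 4128 CPM), Stmn1 (677 and 752), Ube2c and Rrm2, followed by Birc5 in PBS (261 CPM) and Mki67 in cmExoaCD11b (310 CPM). In immature neutrophils they were Hmgb2 (2376 and 2573 CPM), Ube2c, Stmn1 (161 and 199 CPM) and Birc5 (98.6 and 112 CPM), with Cenpa in PBS (101 CPM) and Mki67 in cmExoaCD11b. Hmgb2 alone gave 60.2% and 59.3% of the UMIs of the 41 members in immature neutrophils and 69.1% and 73.2% in mature neutrophils, where 45.1% and 57.6% of thinned cells had a UMI of it. Stmn1 had a UMI in only 1.74% and 2.03% of thinned mature neutrophils, fewer than the 10.6% and 11.2% of Pcna. Hmgb2 and Stmn1 were not part of the dividing call, whereas Pcna was.

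In T cells the dividing cells were spread over S phase and mitosis. Besides Hmgb2 (844 and 750 CPM) and Stmn1 (198 and 122 CPM), the members with the highest levels were Dut (194 and 102 CPM) and Pcna (113 and 107 CPM), followed by Cenpa, the centromeric histone (88.4 CPM in PBS), and Top2a (94.1 CPM in cmExoaCD11b). Of the dividing T cells in PBS, 7 held the S call alone, 7 the mitosis call alone and 7 both, and in cmExoaCD11b 17, 20 and 19 did. Dividing T cells held T markers at 4990 and 4488 CPM, against 4884 and 4111 CPM in the other T cells. They held precursor markers at 38.0 and 57.0 CPM, below the 59.0 and 116 CPM of the other T cells. A T cell had to pass the T gate, and a cell that also passed a neutrophil gate was put in no class. The gates thus bound both marker levels in all T cells, so these values do not test what the dividing cells are. Cells with Cd8 UMIs alone were dividing in 8.57% of cases in PBS and 7.80% in cmExoaCD11b, and cells with Cd4 UMIs alone in 5.30% and 6.99%.

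In plasma cells the members with the highest levels after Hmgb2 (931 and 851 CPM) were Stmn1 (236 and 196 CPM), Ube2c (201 and 217 CPM), Dut (166 CPM in PBS), Mki67 (108 and 222 CPM) and Rrm2 (217 CPM in cmExoaCD11b). Of the dividing plasma cells, 5 held the S call alone, 7 the mitosis call alone and 3 both in PBS, and 7, 18 and 17 in cmExoaCD11b. Dividing plasma cells held the plasma markers at 8141 and 14593 CPM, below the 21061 and 26304 CPM of the other plasma cells. Their precursor markers were at 34.4 and 35.5 CPM, against 27.5 and 47.2 CPM in the others. The gates bound both marker levels here as in T cells. In PBS 5 cells gave 51.2% of the UMIs of the 39 members in plasma cells, and in cmExoaCD11b 23.4%.

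The members with the highest levels in macrophages were Hmgb2 (359 and 487 CPM), Stmn1 (131 and 210 CPM), Pcna (122 and 169 CPM) and Dut (39.7 and 57.1 CPM), with Cenpa in PBS (33.8 CPM) and Birc5 in cmExoaCD11b (53.8 CPM). Only 6 macrophages were called dividing in each library. In cmExoaCD11b 5 cells held 70.9% of the UMIs of the 39 members in this class, and in PBS 41.4%. Precursor markers were at 71.6 and 17.6 CPM in dividing macrophages, against 122 and 132 CPM in the others. Macrophage markers were at 8437 and 2274 CPM in the dividing cells, against 10052 and 5307 CPM in the others. Here too the gates bound both marker levels.

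Epithelial cells were few, and Stmn1 (501 and 346 CPM) stood above Hmgb2 (436 and 320 CPM) in them alone of the classes drawn in the plot of member levels. Dut (134 and 138 CPM) and Pcna (111 and 99.7 CPM) followed, then Ube2c in PBS (97.9 CPM) and Rrm2 in cmExoaCD11b (87.7 CPM). Only 3 and 4 epithelial cells were called dividing, and 5 cells gave 81.6% and 73.2% of the UMIs of the 39 members. Whether these were tumor or normal epithelial cells cannot be told apart from keratins. Monocytes had a mitosis over S ratio of 3.53 and 2.34 and, in PBS, Ube2c at 145 CPM, but 5 cells gave 68.8% of their member UMIs there.

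The libraries were then compared class by class. In precursors the summed level of the 41 members was 1.11 times as high in cmExoaCD11b as in PBS (1.10 to 1.12), and in immature neutrophils 1.10 times (1.09 to 1.11). The median of all genes in these classes was 1.11 and 1.12, so the sums of the 41 members lay where the median gene did. Without Hmgb2 and Stmn1 the ratio was 1.15 (1.14 to 1.17) in precursors, above the median gene. In immature neutrophils it was then 1.11 (1.09 to 1.13). The dividing share of precursors was 1.15 times as high (0.957 to 1.38) and that of immature neutrophils 1.15 times (0.917 to 1.45). These intervals treat dividing cells as rare events, which they are not in precursors, so there the interval is wider than the counting of cells gives. The precursor shares themselves had intervals of 57.9% to 69.0% in PBS and 68.5% to 77.1% in cmExoaCD11b. None of these intervals covers differences between mice, and with 1 library each they do not say whether the treatments differ. With at least 5 members asked for in place of 3, the ratio of precursors was 1.344 (1.047 to 1.734), and without thinning that of immature neutrophils was 1.333 (1.154 to 1.544).

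Among single members in precursors, 2 of 41 stood at least 1.5-fold higher in cmExoaCD11b, beside 9.17% of 9776 genes, and 0 stood at least 1.5-fold lower, beside 1.71%. These were Cenpe, the motor of the kinetochore (47.1 CPM in PBS and 78.3 in cmExoaCD11b, ratio 1.66), and Cenpf (68.1 and 104 CPM, ratio 1.53). Kif11, the motor that parts the spindle poles, followed at 1.49 (71.6 and 106 CPM). At the other end were Mcm5 (101 and 96.7 CPM, 0.95), Mcm6 (0.97) and Mcm2 (0.97). Of the mitosis members 23 of 24 had a ratio above 1 (median 1.20), and of the S members 11 of 15 (median 1.09). The median of all 9776 genes was 1.11, so most genes also had a ratio above 1. The S median lay below that of all genes and the mitosis median above it. The summed mitosis level was 1.19 times as high and the summed S level 1.11 times. The mitosis call was held by 52.1% of precursors in PBS and 64.7% in cmExoaCD11b, a ratio of 1.24 (1.02 to 1.52), and the S call by 43.6% and 45.5%.

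In immature neutrophils 3 of 41 members stood at least 1.5-fold higher in cmExoaCD11b, beside 12.3% of 9355 genes, and 0 lower, beside 3.07%. The 3 were licensing genes of very low level, namely Cdc6 (1.08 and 2.75 CPM, 13 and 52 UMIs, ratio 2.55), Mcm2 (3.81 and 6.13 CPM, 1.61) and Mcm4 (6.79 and 10.5 CPM, 1.54). At the other end were Cdk1 (63.8 and 50.6 CPM, 0.79), Ube2c (200.5 and 164 CPM, 0.82) and Nusap1, which bundles spindle microtubules (47.8 and 39.6 CPM, 0.83). All 15 S members had a ratio above 1 (median 1.26), with a summed ratio of 1.30, and 20 of 24 mitosis members did (median 1.13), with a summed ratio of 1.08. The median of all 9355 genes was 1.12, so most genes also had a ratio above 1, and the mitosis median lay near it. The S call was held by 2.58% and 4.03% of these cells and the mitosis call by 15.9% and 18.5%. The free RNA differed between the libraries in the same direction, with 655 and 1032 CPM of S members in empty droplets. With 7% of free RNA subtracted, 1 of the members was past 1.5-fold and the summed ratio of the 41 members was 1.077.

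**Figure D4:**
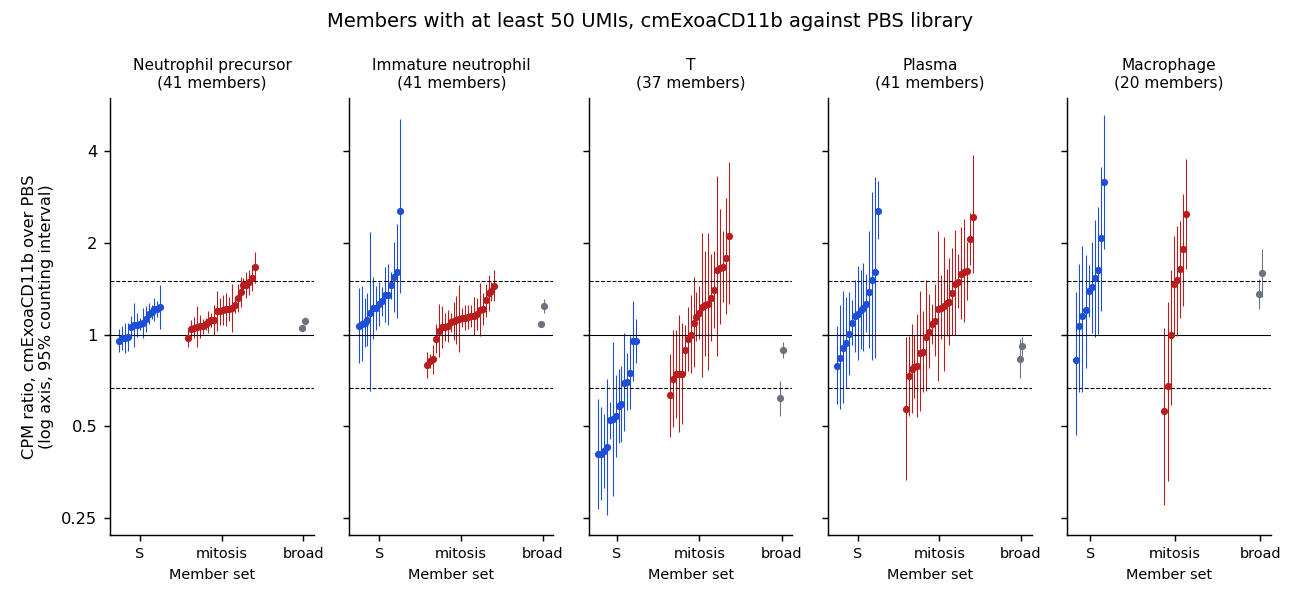
CPM ratio of cmExoaCD11b over PBS for each member with at least 50 UMIs over both libraries (y axis, log scale, with 95% counting intervals), ordered by size within the S (blue), mitosis (red) and broad (gray) members of 5 classes, with dashed lines at 1.5-fold in each direction. All 14 S members measured in T cells lie below 1, whereas in precursors and immature neutrophils most members lie between 1 and 1.5. The median of all genes was 1.02 in T cells, 1.11 in precursors and 1.12 in immature neutrophils.

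In T cells the S members were lower in cmExoaCD11b and the mitosis members were not. The summed S level was 779 CPM in PBS and 487 in cmExoaCD11b, a ratio of 0.626 (0.585 to 0.669), and the summed mitosis level 681 and 752 CPM, a ratio of 1.10 (1.04 to 1.18). Of 37 members with enough UMIs, 5 stood at least 1.5-fold higher, beside 8.84% of 8503 genes, and 11 at least 1.5-fold lower, beside 7.23%. With cells called by the ranked cut-off of UMIs alone, the balance turned, with 8 higher and 5 lower. All 14 S members measured had a ratio below 1, 9 of them at least 1.5-fold, while 13 of 21 mitosis members had a ratio above 1. The lowest were Tk1 (27.1 and 11.0 CPM, 0.41), Mcm5 (37.7 and 15.3 CPM, 0.41) and Tyms (58.0 and 24 CPM, 0.41), and the highest Ccnb1 (9.18 and 19.4 CPM, 2.11), Cenpf (14.0 and 25 CPM, 1.78) and Mki67 (36.2 and 60.5 CPM, 1.67). The median gene in T cells had a ratio of 1.02, and the median member 0.888.

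The S difference of the summed level in T cells was smaller when each cell was given the same weight. With every T cell thinned to 1000 UMIs before the sum, a setting added once results were known, the S ratio was 0.930 (0.776 to 1.12) and the mitosis ratio 1.31 (1.09 to 1.60). In PBS 5 of 373 T cells gave 36.0% of the UMIs of the 39 members, and in cmExoaCD11b 5 of 854 cells gave 25.5%. Dividing T cells had a median of 12503 UMIs in PBS and 5653 in cmExoaCD11b, while the other T cells had 4680 and 3899. The dividing share itself was 1.17 times as high in cmExoaCD11b (0.694 to 2.03), but 0.866 times (0.536 to 1.43) with at most 10% mitochondrial UMIs. The S call was held by 9.38% of T cells in PBS and 6.56% in cmExoaCD11b, a ratio of 0.699 (0.450 to 1.10). Cells with Cd8 alone had a summed level of the 39 members of 0.616 times that in PBS (0.580 to 0.654) and cells with Cd4 alone 1.70 times (1.55 to 1.86), but their dividing shares stood at 0.910 times (0.446 to 1.97) and 1.32 times (0.513 to 3.79). With Cd8 alone, the S level was 1101 CPM in PBS and 566 in cmExoaCD11b, and the mitosis level 1083 and 778 CPM. With Cd4 alone, the S level was 572 and 503 CPM and the mitosis level 382 and 1118 CPM. In the remaining T cells these levels were 340 and 354 CPM, and 205 and 309 CPM. The mitosis level was thus lower in one subset and higher in the others.

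**Figure D5:**
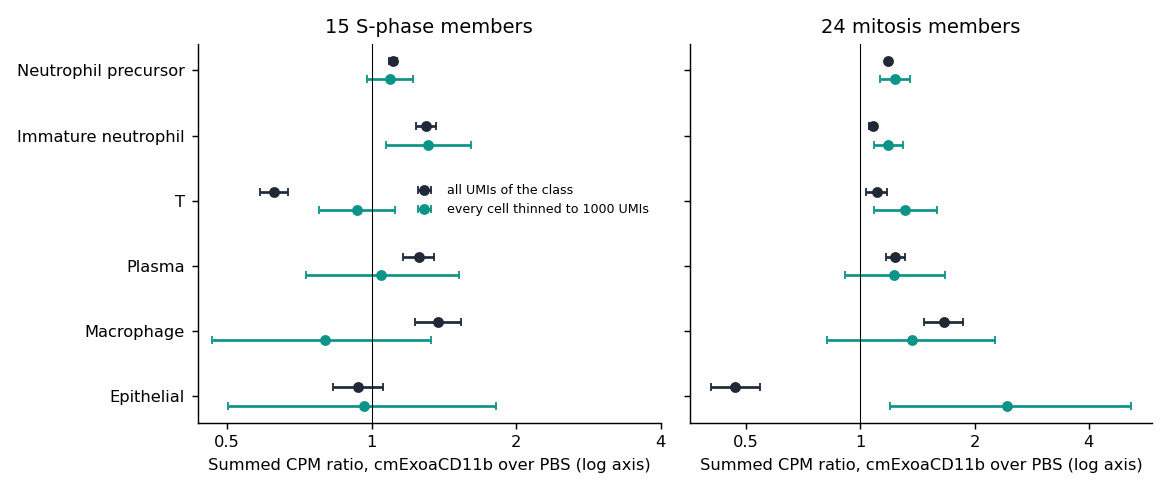
CPM ratio of cmExoaCD11b over PBS (x axis, log scale, with 95% counting intervals) of the summed 15 S members (left) and 24 mitosis members (right) in 6 classes (y axis), from all UMIs of a class (black) and with every cell thinned to 1000 UMIs (teal). In T cells the S ratio is 0.626 from all UMIs and 0.930 after thinning, and in epithelial cells the mitosis ratio is 0.468 and 2.44.

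In plasma cells the summed level of the 41 members was 1.12 times as high in cmExoaCD11b (1.08 to 1.17), with 1.25 for the S and 1.24 for the mitosis members, and 1.01 (0.837 to 1.22) after thinning. Of 41 members 7 stood at least 1.5-fold higher, beside 9.37% of 6221 genes, and 1 at least 1.5-fold lower, beside 13.1%. The highest ratios were those of Rrm2 (85.1 and 217 CPM, 2.55), Hmmr, a spindle protein (21.9 and 53.6 CPM, 2.44), and Mki67 (108 and 222 CPM, 2.06). The lowest were Kif20a, a motor of the midbody (21.9 and 12.5 CPM, 0.57), Nusap1 (60.5 and 44.1 CPM, 0.73) and Cenpe (48.2 and 37.0 CPM, 0.77). The dividing share was 1.19 times as high (0.647 to 2.31), an interval that spans values below 1 and above 2.

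In macrophages the summed level of the 41 members was 1.47 times as high in cmExoaCD11b (1.38 to 1.56), but 1.07 times (0.819 to 1.39) after thinning. Of 20 members with enough UMIs, 9 stood at least 1.5-fold higher, beside 12.4% of 6911 genes, and 1 lower, beside 11%. The highest were Rrm1 (12.1 and 38.5 CPM, 3.17), Mki67 (19.9 and 49.4 CPM, 2.49) and Mcm4 (13.2 and 27.5 CPM, 2.07), and the lowest Bub1b (23.5 and 13.2 CPM, 0.56), Ccnb2 (19.5 and 13.2 CPM, 0.68) and Tyms (25.4 and 20.9 CPM, 0.82). The 6 dividing cells gave 36.5% of the UMIs of the 39 members in this class in PBS and 64.3% in cmExoaCD11b. The dividing share was 2.48 times as high, with an interval of 0.662 to 9.27.

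In epithelial cells the summed level was 0.702 times as high in cmExoaCD11b (0.653 to 0.755), and 1.14 times (0.798 to 1.63) after thinning. Cenpa, with 67 UMIs in PBS and 1 in cmExoaCD11b (75.4 and 1.72 CPM, ratio 0.02 with an interval up to 0.13), had the lowest ratio, followed by Cdc20 (51.7 and 10.3 CPM, 0.20) and Ube2c (97.9 and 46.4 CPM, 0.47). The highest were Rrm2 (1.53), Cdk1 (1.37) and Tyms (1.26). As 5 cells of each library gave most of these UMIs, the values describe a handful of cells.

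A further 28 genes that steer the cycle were measured beside the members. From precursors to immature neutrophils, 15 of the 27 with enough UMIs stood at least 4-fold higher in precursors in each library, beside 9.79% and 12% of all genes. Cdk4, the kinase of early G1, had ratios of 16.0 and 21.3, Chek1, the replication checkpoint kinase, 16.3 and 7.72, Mybl2, a partner of the mitotic gene program, 10.2 and 9.33, Ccne1, cyclin E, 10.1 and 8.76, and Cdt1, a licensing factor, 9.10 and 9.17. Ccnd3, a D-type cyclin, was near even (346 and 386 CPM in precursors, ratios 1.14 and 1.02). E2f2 (1.70 and 1.41), Cdk2, the partner of cyclin E (1.88 and 1.96), Cdc25c (2.24 and 2.15) and Foxm1, the factor of mitotic genes (2.44 and 2.34), stood below 4-fold, and Cdc25b was lower in precursors (0.70 and 0.82). The inhibitors Cdkn1a (0.73 and 0.58), Cdkn1b (0.70 and 0.59) and Cdkn2d (0.79 and 0.80) were lower in precursors than in immature neutrophils, and a further inhibitor, Cdkn2c, was higher (2.49 and 1.88).

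Between the libraries, these genes were set side by side with the same 1.5-fold limit. In precursors 1 of 27 was higher, beside 9.17% of all genes, Cdc25b, a phosphatase that activates Cdk1 (9.04 and 14.3 CPM, 1.58), and 1 lower, beside 1.71%, Cdkn1a (109 and 71.9 CPM, 0.66). In immature neutrophils 3 of 25 were higher, beside 12.3%, E2f2 (45.9 and 76.6 CPM, 1.67), E2f8 (9.69 and 16.1 CPM, 1.66) and Ccnd2 (3.15 and 6.13 CPM, 1.95), and 0 lower, beside 3.07%. In T cells 1 of 17 was higher, beside 8.84%, and 3 lower, beside 7.23%. Cdc25b was the higher one (1.65), and Gmnn, which blocks repeated licensing (55.1 and 31.9 CPM, 0.58), Chaf1b (0.59) and Wee1 (0.66) were lower. In plasma cells 3 of 21 were higher, beside 9.37%, and 4 lower, beside 13.1%. There Ccne1 (10.5 and 46.8 CPM, 4.45), Ccnd2 (140 and 370 CPM, 2.64) and Cdk2 (1.83) were higher, and Cdkn1a (0.31), Ccnd3 (0.52), Mcm10 (0.58) and Wee1 (0.63) lower. In macrophages 3 of 11 were higher, beside 12.4%, and 1 lower, beside 11%. There Cdkn2d (2.50), Cdt1 (2.22) and Ccnd3 (2.01) were higher and Ccnd1 (0.63) lower.

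These genes were measured in the neutrophil classes, T cells, plasma cells, macrophages and epithelial cells. Among these, Cdkn1a was highest in mature neutrophils, at 1472 CPM in PBS and 690 in cmExoaCD11b, a ratio of 0.47 (0.45 to 0.48). In the same class Ccnd3 was 173 and 409 CPM (2.37), Cdkn2d 112 and 233 CPM (2.08) and E2f2 10.1 and 18.6 CPM (1.84). Cdk4 (24.3 and 12.5 CPM, 0.52), Cdk6 (76.8 and 39.1 CPM, 0.51) and Cdt1 (14.1 and 6.49 CPM, 0.46) were lower there in cmExoaCD11b. The summed level of the 41 members there was 1.35 times as high in cmExoaCD11b, and 1.17 times without Hmgb2 and Stmn1, while the median gene stood at 0.848.

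The genes outside the list whose level over 18 class and library sums ran most like that of the members were Nuf2, Kifc1, Cip2a, Ska1, Tacc3, Ect2, Troap, Asf1b, Kif18b and Cdca8, with Pearson's r of 0.962 down to 0.955 on the log2(CPM + 10) scale. The points share their libraries and depth, and r is given as a description. Cdca8, a chromosomal passenger protein, was 177 and 183 CPM in precursors, 59.6 and 65.8 in immature neutrophils, 74.5 and 67.7 in plasma cells and 4.21 and 4.47 in mature neutrophils. Nuf2, a kinetochore protein, was 25.4 and 33.9 CPM in precursors and 9.69 and 12.5 in immature neutrophils.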

How the data were processed

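The authors deposited 1 table of raw UMI counts for each library, with empty droplets included. Both table headers name Cell Ranger 7.1.0, whereas the study's methods name another version. The genome build of the counts is not given in the sources used here. Barcodes were called as cells by a ranked cut-off and, from 500 UMIs, by a test against droplets with at most 100 UMIs (10000 simulations, false discovery rate 0.01). Cells under 200 genes or above 20% mitochondrial UMIs were left out, and those with the highest Scrublet scores (0.8% per 1000 cells) were removed, since the automatic threshold marked 0 cells. This removed 421 and 453 cells.

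A class gate needed at least 3 UMIs from at least 2 markers and a Poisson tail under 0.001 against free RNA at 10% of the cell's UMIs. Cells of 1 lineage took its earliest class for neutrophils, plasma cells before B cells, and macrophages or dendritic cells before monocytes. Shares have exact Clopper-Pearson intervals, summed counts exact Poisson intervals and ratios exact conditional intervals. The intervals of ratios treat both counts as Poisson, so for ratios of high shares, as in precursors, they are too wide. Members were set between libraries by the ratio of CPM with 1 UMI added, where they had at least 50 UMIs over both. No test between treatments was run. The members and lists were chosen with earlier results of these data known. Genes named are the 5 highest members per class, the 3 largest ratios in each direction, the 3 members with most and fewest UMIs in precursors, and the 10 genes most like the sum. Promoter windows are RefSeq's. Scripts were tested on simulated data. Python 3.11.15, scanpy 1.11.5, numpy 2.4.6, scipy 1.17.1 and pandas 2.3.3 were used. Alternatives varied cell calling, doublets, gates, totals, free RNA and the minimum of UMIs.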

Additional observations from a re-analysis of the deposited data

Results flagged for a closer look

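The summed level of the 41 members differed in direction between classes under the same contrast of the libraries. It was 1.107 times as high in cmExoaCD11b as in PBS in neutrophil precursors, 1.099 in immature neutrophils, 1.124 in plasma cells and 1.465 in macrophages, but 0.8436 in T cells and 0.702 in epithelial cells. The difference between the classes was not tested, since there was 1 library per treatment. With every cell thinned to 1000 UMIs the ratio in T cells was 1.04 and in epithelial cells 1.14.

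Cells that passed no gate belong to none of the comparisons above, and they too held dividing cells. Their dividing share was 1.29% of 1160 cells in PBS and 5.19% of 790 in cmExoaCD11b, a ratio of 4.014 with a counting interval of 2.18 to 7.81, and above the 0.290% and 0.643% of mature neutrophils. Their summed level of the 39 members was 597 and 1227 CPM.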

How the results depend on the processing

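No paired analysis was possible because the libraries are pools of different mice and no test was run, and no replicate could be left out. Of 59 recomputed ratios of dividing shares, 57 stayed within their interval and 2 moved: with gates on marker UMIs alone, without the test against free RNA, the ratio was 1.87 in immature neutrophils and 0 in epithelial cells. A ratio that stayed within its interval could still change direction. That of T cells went from 1.165 to 0.8663 with at most 10% mitochondrial UMIs. For precursors the interval of the ratio is too wide, so staying within it says little there. Of 60 recomputed ratios of the summed CPM, 36 stayed, 18 moved and 6 changed direction. The changes of direction were T cells at 1.075 with the ranked cut-off alone, plasma cells at 0.9066, macrophages at 0.9609 and epithelial cells at 4.047 with the plain gates, and T cells at 1.04 and epithelial cells at 1.14 after thinning. The cause was not tested. The others that moved were immature neutrophils at 1.12 with the ranked cut-off; precursors at 1.089, immature neutrophils at 1.14 and plasma cells at 1.17 without doublet removal; immature neutrophils at 1.122 with free RNA at 20%; and precursors at 1.035, immature neutrophils at 1.21 and T cells at 0.9013 with the plain gates. Without the 50 most abundant and the mitochondrial genes precursors were at 1.043 and immature neutrophils at 1.004, where the median of all genes shifted by -0.08 and -0.13 (log2). With 7% free RNA subtracted immature neutrophils were at 1.077, T cells at 0.777 and epithelial cells at 0.627. Of the alternatives added later, leaving out Hmgb2 and Stmn1 gave 1.154 in precursors and 1.243 in plasma cells, and thinning gave 1.135 in immature neutrophils, 1.009 in plasma cells and 1.069 in macrophages.

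Of 50 recomputed counts of members past 1.5-fold, 38 stayed within 1.5 times and 12 moved. In precursors the count was 1 without doublet removal, 1 with the plain gates and 1 without the abundant genes. In immature neutrophils it was 1 with free RNA at 20%, 5 with the plain gates, 1 without the abundant genes and 1 with free RNA subtracted. With the plain gates it was 3 in T cells and 0 in plasma cells and in macrophages. In macrophages it was 20 with a minimum of 20 UMIs and 24 without a minimum. The number of cells limits the sums outside the neutrophil classes, where 5 cells gave 23.4% to 81.6% of the member UMIs of T cells, plasma cells, macrophages and epithelial cells.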

Other observations

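Of the cells removed for a high doublet score, 10.8% of 418 in PBS and 20.1% of 448 in cmExoaCD11b were dividing by the same call, against 6.90% and 12.2% of the kept cells. Of these removed cells 34.2% and 51.9% had markers of 2 lineages. Among the kept cells with markers of 2 lineages, 15.3% and 21.8% were dividing, and 170 and 218 of them joined monocyte or macrophage markers with neutrophil markers.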
